A study of Macaca mulatta with 24 samples.

Results

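The genes described here are those of drug and xenobiotic metabolism in the ileum of rhesus macaques after total-body irradiation (TBI): cytochromes P450 (CYP) of families 2, 3 and 4, carboxylesterases (CES), UDP-glycosyltransferases (UGT), cytosolic sulfotransferases (SULT), glutathione transferases (GST), the efflux transporters ABCB1, ABCC2 and ABCG2, and the nuclear receptors NR1I2 and NR1I3. They were chosen by the gene symbol of the array probe alone, which gave 62 genes with 95 probes, of 16094 symbols and 43603 probes on the array. Because the choice was by the first letters of the symbol, it also holds CYP21A2, CYP26A1, CYP27A1, CYP27B1, CYP2R1 and CYP39A1, which act on steroids, retinoids, bile acids and vitamin D, and GSTCD, which carries a GST domain in its name. CYP1 genes were left out. For 25 genes with several probes the brightest probe over all 24 arrays stands for the gene.

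Whole ileum, about 3 cm of gut wall, was taken from young-adult male animals, with 1 array for each animal and no pooling. The unirradiated group held 4 animals, labelled day 4 with a dose of 0 Gy, and served as the control for every day. A single dose of gamma rays of 6.7 Gy or 7.4 Gy was given to the other animals, and for each dose the ileum was taken from 4 animals at day 4, 4 animals at day 7 and 2 animals at day 12. All strata of the gut wall are in each sample, so that fewer cells of a type and less RNA per cell cannot be told apart.

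Enzymes of this group handle what is absorbed across the gut wall. CYPs and carboxylesterases oxidize or cleave drugs and dietary compounds, UGTs, SULTs and GSTs join them to glucuronic acid, sulfate or glutathione, and ABCB1 (P-glycoprotein), ABCC2 (MRP2) and ABCG2 (BCRP) pump parent compounds and conjugates back into the lumen. In the small intestine most of this is done by enterocytes of the villus, which are renewed from dividing crypt cells. NR1I2 (PXR) and NR1I3 (CAR) are receptors that sense foreign compounds and switch on many of these genes.

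Levels are given as the log2 intensity minus the array's 75th percentile, so that 0 is the 75th percentile and a difference of 1 is a 2-fold difference. Different probes bind with different strength, and a level is compared only with the same probe on other arrays. Of the 62 genes, 56 were well above background on all 24 arrays, and 59 were bright enough to be tested. CES5A, CYP4F22 and GSTM3 were too dim for this and are given no change. Probes of near-identical relatives (GSTA1 and its paralogs, UGT2B4 and UGT2B9*2, the CYP3A genes) may share signal. The array describes its CYP3A4 probe as cytochrome P450 3A64, its CYP2F1 probe as 2F6 and its CES2 probe as similar to liver carboxylesterase 1, and the symbols are used here as deposited. In each comparison a probe was called changed at an adjusted p from limma (Benjamini-Hochberg over all 36108 probes tested) under 0.05 with at least a 2-fold difference. The spread in the tests is that between animals.

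The samples carried ileal epithelium. FABP6 and SLC10A2, the bile acid binding protein and the bile acid transporter of ileal enterocytes, were well above background on all 24 arrays, with FABP6 between 8.66 and 8.78 in the controls and between 7.00 and 9.19 elsewhere. Of 8 hepatocyte markers, ALB, AHSG and FGG were well above background on 10, 8 and 3 arrays and FGA on 21, whereas APOA2 (1.89 to 3.57), SERPINA1 (-0.41 to 3.47), TTR (-0.59 to 2.89) and FGB (-5.62 to 1.26) were so on all 24. The 24 arrays lie on 6 slides scanned on 2 days, and all 4 controls are in position 1 of slides from scan day 1. All day 4 arrays are in position 1 or 2, and all day 7 and day 12 arrays in position 3 or 4. When day 7 or day 12 is compared with the controls or with day 4, day and array position cannot be told apart.

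Levels of enterocyte and crypt markers were not alike in all samples. Replicate 4 of day 4 after 6.7 Gy stood apart, with a mean of 12 enterocyte markers of 1.59, against 3.03 to 3.49 in the other 3 animals of its group and 2.43 to 3.46 in the controls. Its mean of 6 crypt and proliferation markers was 1.17, above all other 23 arrays (-1.58 to 0.22), and OLFM4, a crypt stem cell marker, was at 0.64 there, against -8.83 to -2.11 elsewhere. It was the lowest of its 4 animals for 43 of the 59 tested genes. In the group of day 4 after 7.4 Gy, replicate 1 had the lowest enterocyte mean (2.37, others 2.8 to 3.36) and was the lowest for 32 of 59. Control replicate 1 had a mean of 5 smooth muscle markers of 1.87, against 3.59 to 4.71 on all other arrays, and was the highest control for 27 of 59 genes. The mean of 8 epithelial markers, by contrast, was 2.20 in replicate 4 of day 4 after 6.7 Gy, inside the range of its group (1.91 to 2.57), and at 2.10 to 2.38 on day 4 after 7.4 Gy, against 2.59 to 2.87 in the controls. Counts over all 59 genes on day 4 against the controls are given with and without these 3 arrays, and what part these differences in marker levels have in the results was not tested.

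**Figure D1:**
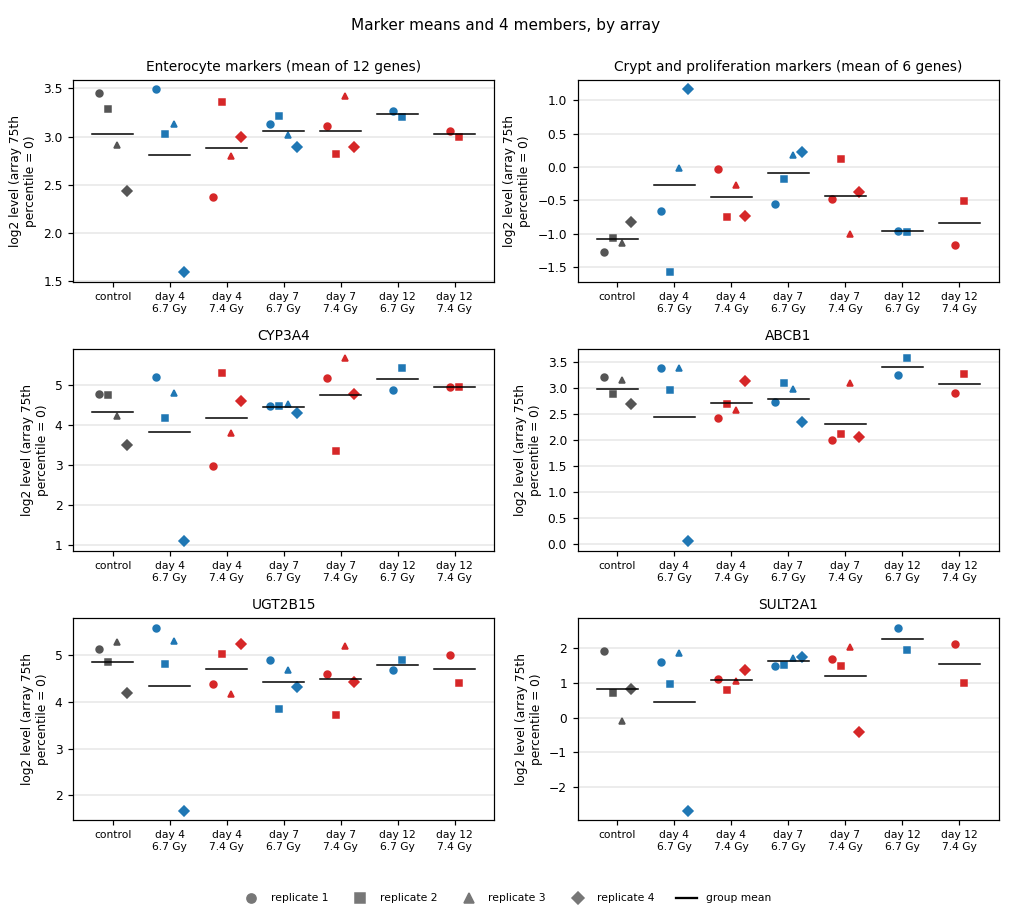
Mean log2 level of 12 enterocyte markers and of 6 crypt and proliferation markers, and the levels of CYP3A4, ABCB1, UGT2B15 and SULT2A1, on each array (y axis, log2 intensity with the array's 75th percentile at 0; x axis, the 7 groups; marker shape, replicate; line, group mean). Replicate 4 of day 4 after 6.7 Gy (diamond) is at 1.59 for enterocyte markers and 1.17 for crypt markers, and is the lowest of all 24 arrays in the panels of CYP3A4, ABCB1, UGT2B15 and SULT2A1.

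On day 4 most of the tested genes were lower than in unirradiated ileum, but few passed the test. After 6.7 Gy 40 of 59 were lower and 19 higher, with a median of -0.32 against -0.10 over all probes tested. After 7.4 Gy 42 were lower and 17 higher, with a median of -0.23 against -0.07. At the lower dose 1 of 59 (1.69%) was called, GSTA3, where 0.978% of all probes were called in either direction and 0.382% lower. At the higher dose 3 of 59 (5.08%) were called, CES2, GSTA1 and GSTA3, where 2.33% of all probes were called, and all 3 were lower, where 0.734% of all probes were called lower. Without replicate 4 of the lower dose, 27 genes were lower and 32 higher in that group, the median was 0.06 and none was called (0.643% of all probes). Without control replicate 1 no gene was called at either dose (0.615% and 1.11% of all probes), and without replicate 1 of the higher dose none was called there (1% of all probes), with 35 of 59 lower.

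**Figure D2:**
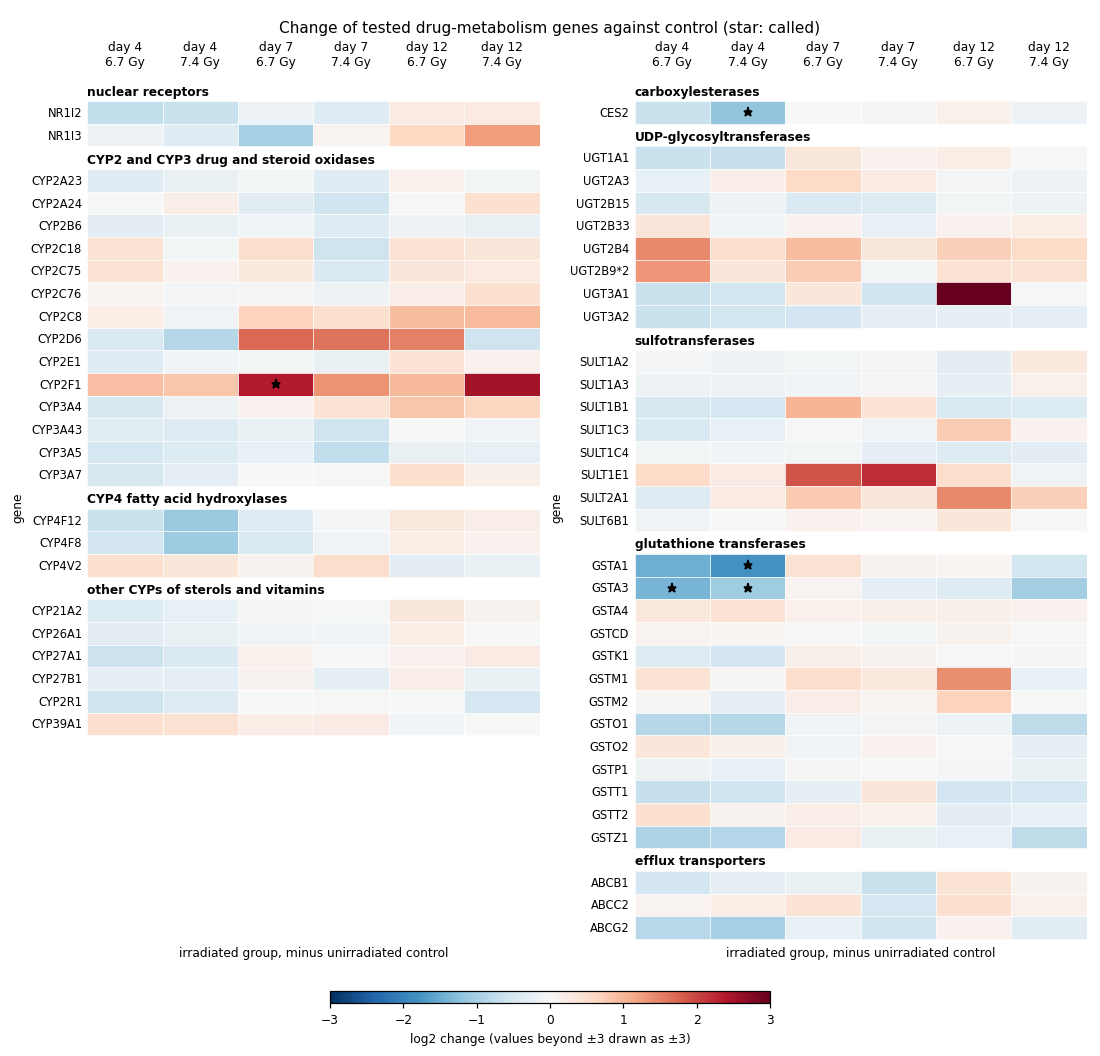
Log2 change of the tested genes (rows, grouped by role; 1 of the 59 is not drawn) in the 6 irradiated groups minus the unirradiated controls (columns); blue is lower, red is higher, and a star marks a change with an adjusted p under 0.05 and at least 2-fold, UGT3A1 being left without one since it was chosen for its values on day 12. Blue prevails on day 4, where GSTA3 (both doses), GSTA1 and CES2 (7.4 Gy) carry stars, and CYP2F1 carries one on day 7 after 6.7 Gy.

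Glutathione transferases, which join glutathione to reactive compounds, were 13 of the 59 genes tested. Of the 4 calls made on day 4, 3 were in this family. They were those of GSTA3 at both doses, against the same 4 controls, and of GSTA1 at 7.4 Gy. GSTA3, an alpha-class enzyme, was at -0.46, -1.24, -1.65 and -1.78 in the controls. On day 4 it stood at -2.27, -1.98, -3.06 and -3.43 (6.7 Gy) and at -2.95, -2.39, -2.0 and -2.05 (7.4 Gy). All 8 irradiated animals of day 4 were below all 4 controls. The difference from the controls was -1.40 (SE 0.30, limma adjusted p = 0.0190) at the lower dose and -1.06 (SE 0.30, adjusted p = 0.0395) at the higher dose. With array position as a covariate these became -0.84 (adjusted p = 0.207) and 0.06 (adjusted p = 0.972), a fit in which the dose of 7.4 Gy, all in position 2, is tied to the controls only through the lower dose. Leaving out 1 array at a time, the call was lost without 2 of 24 arrays at the lower dose (control replicate 1, and replicate 4 of its own group with -1.15 and adjusted p = 0.0613) and without 6 at the higher dose (control replicates 1 and 2 and each of its own 4 animals). The higher-dose call was also lost with normexp background correction (-0.88, under 2-fold), without the filter on dim probes (adjusted p = 0.0542) and on scan day 1 alone (-1.38, adjusted p = 0.0503).

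GSTA1, the main alpha-class enzyme of human small intestine, was at 5.66, 4.79, 4.01 and 4.5 in the controls. After 7.4 Gy it was at 1.41, 3.65, 4.05 and 2.60 on day 4, so that replicate 3 overlapped the controls and replicate 1 lay far below. GSTA1 fell there by 1.81 on the log2 scale (SE 0.46, adjusted p = 0.0260). After 6.7 Gy the values were 3.70, 2.84, 3.92 and 2.67, all below the controls, with a difference of -1.46 (SE 0.46, adjusted p = 0.0861) that missed the threshold. The higher-dose call was lost without control replicate 1, or without replicate 1 or replicate 4 of the group, and ran from -2.19 to -1.31 over all arrays left out. It was also lost with slide as a block (-1.80, adjusted p = 0.0568), with array position as a covariate (-1.84, adjusted p = 0.297), with the mean of the gene's probes (-1.75, adjusted p = 0.118) and on scan day 1 alone (-2.21, adjusted p = 0.0845). A second, dimmer GSTA1 probe differed by -1.68 at this dose (SE 1.03, adjusted p = 0.339), with 4.43 in replicate 3 and -0.65 in replicate 1.

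GSTO1, an omega-class enzyme that reduces rather than conjugates many of its substrates, was at 6.58, 5.99, 6.29 and 6.05 in the controls. On day 4 it was at 5.66, 5.06, 5.56 and 5.21 after 6.7 Gy, and at 5.22, 5.67, 5.28 and 5.31 after 7.4 Gy. None of these 8 animals reached the lowest control. The differences of -0.85 (SE 0.18, adjusted p = 0.0179) and -0.86 (SE 0.18, adjusted p = 0.00996) passed the p threshold but were under 2-fold, so that GSTO1 was not called. Without replicate 4 of the lower dose the first was -0.80 (adjusted p = 0.0515), and it also missed the p threshold without control replicate 1 (adjusted p = 0.0615). GSTZ1, which acts in tyrosine breakdown, was between -2.07 and -1.44 in the controls and between -3.20 and -2.12 on day 4 after the lower dose, again without overlap, with a difference of -0.93 (SE 0.27, adjusted p = 0.0680). After 7.4 Gy it differed by -0.89 (SE 0.27, adjusted p = 0.0541), with replicate 2 at -2.06, inside the range of the controls.

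The other glutathione transferases did not move together. GSTP1, the pi-class enzyme, kept to a narrow range of 5.21 to 5.80 over all 24 arrays, with a difference of -0.25 (SE 0.13, adjusted p = 0.264) after 7.4 Gy. GSTM1, the mu-class enzyme, differed by 0.45 and 0.03 on day 4 (SE 0.43 each), and GSTT2 of the theta class by 0.47 (SE 0.16, adjusted p = 0.0982) and 0.11. Of the 13 GSTs tested, 7 were lower and 6 higher at 6.7 Gy, and 8 lower and 5 higher at 7.4 Gy.

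**Figure D3:**
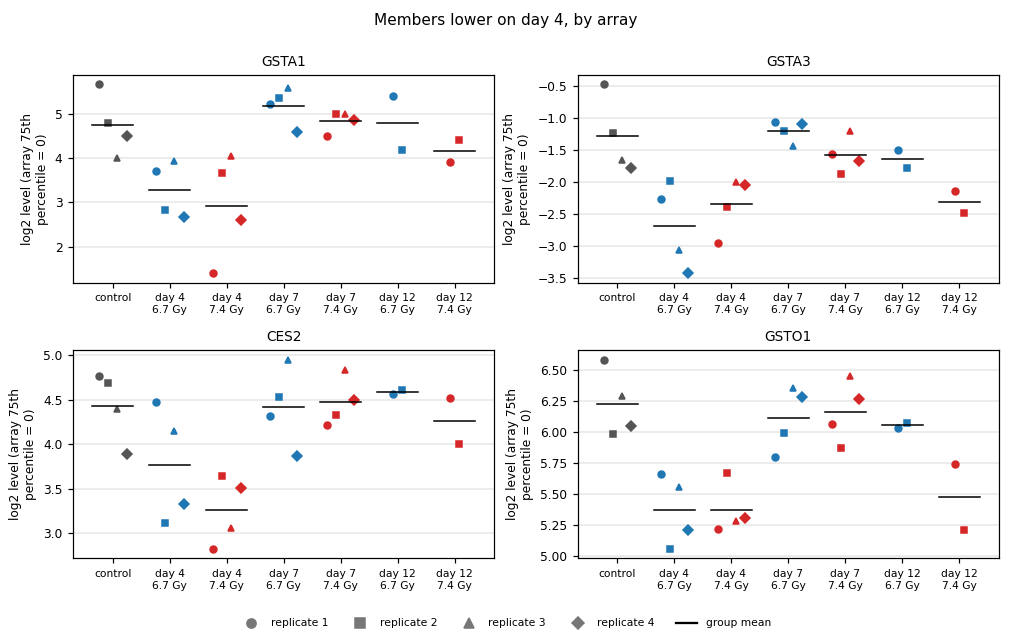
Levels of GSTA1, GSTA3, CES2 and GSTO1 on each array (y axis, log2 intensity with the array's 75th percentile at 0; x axis, the 7 groups; marker shape, replicate; line, group mean). On day 4 GSTA3 and GSTO1 lie below all 4 controls in all 8 irradiated animals, while GSTA1 (4.05) reaches the control range in 1 animal of the 7.4-Gy group.

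CES2 cleaves ester prodrugs and is the main carboxylesterase of human intestine. It was at 4.76, 4.68, 4.39 and 3.89 in the controls and at 2.82, 3.64, 3.05 and 3.51 on day 4 after 7.4 Gy, with no overlap. CES2 fell by 1.18 on the log2 scale (SE 0.29, adjusted p = 0.0210) at this dose, and its second probe by 1.11 (SE 0.29, adjusted p = 0.0266). At 6.7 Gy the values of 4.48, 3.11, 4.14 and 3.32 overlapped the controls, with a difference of -0.67 (SE 0.29, adjusted p = 0.177). The call was lost without control replicate 1 or 2 and without replicate 1 or 3 of the group (adjusted p of 0.0510 to 0.0834). It was also lost with slide as a block (-1.08, adjusted p = 0.0694), with position as a covariate (-1.12, adjusted p = 0.299) and on scan day 1 alone (-1.20, adjusted p = 0.0927).

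The CYP4F genes, whose enzymes hydroxylate fatty acids and eicosanoids, were not called on day 4. CYP4F12 was at 4.59, 3.91, 3.68 and 3.09 in the controls and at 2.20, 3.16, 2.53 and 2.94 after 7.4 Gy, where only replicate 2 reached the control range, with a difference of -1.11 (SE 0.39, adjusted p = 0.0876). CYP4F8 differed by -1.08 (SE 0.41, adjusted p = 0.114) with no overlap between the groups. CYP4F8 is named here after its values were seen. Without replicate 4 of the lower dose, whose value for CYP4F12 was 1.64 against 3.50 to 3.84 in its group, the spread was smaller and CYP4F12, CYP4F8 and ABCG2 were also called at 7.4 Gy, which made 6 of 59 (2.78% of all probes).

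CYP2 and CYP3 genes, which hold the main oxidases of drugs and steroids, passed no test on day 4: 9 of 15 were lower after 6.7 Gy and 11 of 15 after 7.4 Gy, with changes between -0.86 and 0.91. CYP3A4, which oxidizes a large share of human drugs, was between 3.50 and 4.77 in the controls. It was at 5.19, 4.17, 4.79 and 1.08 on day 4 after the lower dose, so that 3 animals lay within or above the control range and replicate 4 far below. The difference was -0.50 (SE 0.67) with that animal and 0.41 without it. CYP3A5 had the same order of animals, at 5.48, 4.46, 5.24 and 2.72, with a difference of -0.53 (SE 0.43) with and 0.06 without replicate 4. CYP2C18, the brightest CYP2 probe, was at 3.35, 2.30, 3.32 and -0.28 there, against 0.65 to 2.54 in the controls, with a difference of 0.43 with and 1.25 without replicate 4 (adjusted p = 0.208). Without replicate 4, 12 of the 15 CYP2 and CYP3 genes were higher than the controls on day 4 after the lower dose and 3 lower, none called, with a median of 0.23.

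UDP-glycosyltransferases passed no test on day 4 either. UGT1A1, which conjugates bilirubin, was at 4.42, 3.82, 3.96 and 3.41 in the controls and differed by -0.67 (SE 0.32, adjusted p = 0.212) and -0.68 (SE 0.32, adjusted p = 0.200) after the 2 doses, the former being -0.28 without replicate 4. UGT2B15, which conjugates androgens, was between 4.19 and 5.29 in the controls, and at 5.59, 4.81, 5.31 and 1.68 on day 4 after 6.7 Gy, where the difference was -0.52 with and 0.38 without replicate 4. The largest spread within groups of all tested genes was that of UGT2B9*2 (SD 1.43) and UGT2B4 (SD 1.43), named here for that spread. UGT2B9*2 ran from -1.11 to 1.24 in the controls and from -1.76 to 3.48 on day 4 after 6.7 Gy, where its difference of 1.32 (SE 0.94, adjusted p = 0.397) did not pass, and was 2.32 (adjusted p = 0.163) without replicate 4.

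Sulfotransferases showed no called change against the controls on any day. SULT1A3, a phenol and monoamine sulfotransferase, differed from the controls by between -0.26 and 0.15 in all 6 groups. SULT2A1, which sulfates bile acids and dehydroepiandrosterone, was at 1.92, 0.73, -0.11 and 0.83 in the controls and at 1.61, 0.98, 1.86 and -2.67 on day 4 after 6.7 Gy. Replicate 4 was again the low one, and the difference was -0.40 (SE 0.72) with and 0.64 without it. The narrowest spread within groups was that of SULT6B1 (SD 0.14), a little-studied member.

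Among the efflux transporters, ABCB1 was at 3.21, 2.89, 3.16 and 2.69 in the controls. On day 4 after 6.7 Gy it was at 3.38, 2.95, 3.38 and 0.06, and after 7.4 Gy at 2.43, 2.69, 2.59 and 3.13. The lower-dose difference was -0.55 (SE 0.49) with and 0.25 without replicate 4. ABCC2 showed the same single low animal (-0.33 against 2.55 to 3.32), with a difference of 0.09 with and 0.89 without it. ABCG2 was at 4.35, 3.82, 3.69 and 2.98 in the controls and at 2.65, 3.00, 2.18 and 3.00 on day 4 after 7.4 Gy, with a difference of -1.0 (SE 0.36, adjusted p = 0.0980) that did not pass.

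The receptor NR1I2 was at 3.35, 2.93, 1.91 and 2.07 in the controls. It was at 2.21, 2.01, 2.41 and 0.72 on day 4 after 6.7 Gy and at 1.59, 2.26, 1.72 and 2.03 after 7.4 Gy, overlapping the controls at both doses, with differences of -0.73 (SE 0.32, adjusted p = 0.182) and -0.67 (SE 0.32, adjusted p = 0.208). Without replicate 4 the lower-dose difference was -0.36. NR1I3 was dim, well above background on 11 of 24 arrays. Its difference on day 4 was -0.18 and -0.37 (SE 0.44 each), and on day 7 after 6.7 Gy none of the 4 arrays was well above background. The other CYPs of sterols and vitamins passed no test, with 5 of 6 lower at each dose on day 4, among them CYP27A1, a bile acid and vitamin D hydroxylase, at -0.63 (SE 0.31), or -0.25 without replicate 4, and at -0.43 (SE 0.31).

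The share of genes whose animals did not overlap with the controls on day 4 was near that of all probes. After 6.7 Gy, 5 of 59 (8.47%) had every irradiated animal below every control, namely CYP2A23, GSTA1, GSTA3, GSTO1 and GSTZ1, where 7.71% of all probes did. After 7.4 Gy there were also 5, namely CES2, CYP4F8, GSTA3, GSTO1 and GSTP1, where 7.91% of all probes did. GSTA3 and GSTO1 were in both lists. The lists share the same controls, and the share of all probes that is in both was not counted, so nothing is read from this. In the other direction GSTO2 lay above all controls at the lower dose (4.1% of all probes) and GSTA4 at the higher dose (7.84% of all probes).

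By day 7 GSTA1, GSTA3, CES2 and GSTO1 differed from the controls by no more than 0.44 in size. Day and array position cannot be told apart in any comparison of day 7 with the controls or with day 4. The median over the 59 genes was 0.09 after 6.7 Gy and -0.05 after 7.4 Gy, against 0.00 and -0.03 over all probes. GSTA3 was at -1.06, -1.19, -1.44 and -1.10 after the lower dose, inside the control range in all 4 animals, and rose against day 4 by 1.49 (SE 0.30, adjusted p = 0.0247). GSTZ1 was at -1.38, -1.51, -1.22 and -1.50, with 2 animals above the highest control, and rose against day 4 by 1.17 (SE 0.27, adjusted p = 0.0451). These made 2 of 59 called between day 4 and day 7 at 6.7 Gy, where 0.354% of all probes were called in either direction and 0.244% higher. Neither was called without replicate 4 of day 4 (0.277% of all probes), where GSTA3 differed by 1.24 (adjusted p = 0.0626) and GSTZ1 by 1.24 (adjusted p = 0.0625). Leaving out 1 array at a time, the call of GSTA3 was lost without 5 of 24 arrays (that animal and each of the 4 of day 7) and that of GSTZ1 without 12, and with the replicate numbers as a block GSTZ1 had an adjusted p of 0.0631. With slide as a block GSTA3 was called (1.88, adjusted p = 0.0315), GSTZ1 was not (0.92, adjusted p = 0.145) and CYP2D6 was called as well (2.81, adjusted p = 0.0478).

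After 7.4 Gy, 3 of 59 genes were called between day 4 and day 7, all higher on day 7, where 0.942% of all probes were called in either direction and 0.593% higher. CES2 was at 4.21, 4.33, 4.83 and 4.5 on day 7, above all 4 animals of day 4, and rose by 1.21 (SE 0.29, adjusted p = 0.0259). GSTA1 was at 4.49, 5.0, 5.0 and 4.86, also above all 4 animals of day 4, and rose by 1.91 (SE 0.46, adjusted p = 0.0276). GSTO1 differed by 0.80 (SE 0.18, adjusted p = 0.0206), under 2-fold, and missed the p threshold without 4 of 24 arrays. The calls of CES2, GSTA1 and CYP2D6 were lost without 3, 5 and 5 of 24 arrays, and none of the 3 held without replicate 1 of day 4 (0.487% of all probes), with -2.41 for CYP2D6 and 1.41 for GSTA1 in that animal. The group spans both scan days, and within each of them the differences of CES2 were 1.43 and 0.99 and those of GSTA1 were 2.40 and 1.42, none called with 2 animals against 2. With slide as a block none of the 3 was called: CES2 differed by 1.07 (adjusted p = 0.10), GSTA1 by 1.58 (adjusted p = 0.119) and CYP2D6 by 2.01 (adjusted p = 0.0595).

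CYP2D6, which oxidizes many basic drugs, was the third gene called in that comparison. On day 7 it was at 1.99, -0.43, 1.32 and 0.34 after 7.4 Gy and at 1.85, 0.89, -0.11 and 0.99 after 6.7 Gy. On day 4 it was between -2.41 and -1.07 at the higher dose, and the controls were at 0.21, -0.43, -1.58 and -1.46. CYP2D6 rose by 2.48 (SE 0.61, adjusted p = 0.0306) from day 4 to day 7 after 7.4 Gy. The difference was 2.16 (SE 0.61, adjusted p = 0.0861) after 6.7 Gy, and against the controls 1.72 (SE 0.61, adjusted p = 0.321) and 1.62 (SE 0.61, adjusted p = 0.251) on day 7, where 6 of 8 irradiated animals were above the highest control.

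CYP2F1, known for bioactivation of naphthalene and similar compounds in lung, was the only gene called on day 7 against the controls after 6.7 Gy (1 of 59, 1.69%; 0.235% of all probes in either direction and 0.0526% higher). It was at -1.79, -2.75, -2.0 and -2.40 in the controls and at 0.24, 0.11, 0.47 and -0.22 on day 7 after 6.7 Gy. CYP2F1 rose by 2.38 (SE 0.53, adjusted p = 0.0494), close to the threshold, and the call was lost in 13 of 24 cases when 1 array was left out, with changes of 2.21 to 2.53, as well as with slide as a block (adjusted p = 0.0933) and with the mean of its probes (1.79, adjusted p = 0.0588). Its 2 other bright probes differed by 1.43 (adjusted p = 0.113) and 1.55 (adjusted p = 0.118). After 7.4 Gy the values of -1.03, -1.68, 0.51 and -1.30 were also above all controls, with a difference of 1.36 (SE 0.53, adjusted p = 0.266). On day 4 CYP2F1 spread from -2.42 to -0.0047 over 8 animals.

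No gene was called by limma against the controls on day 7 after 7.4 Gy, where 0.568% of all probes were called. At an unadjusted p under 0.05 with at least 2-fold there were 3, CYP2D6, CYP2F1 and SULT1E1 (2.38% of all probes), and the methods' t-test gave 2 without and 0 with Benjamini-Hochberg adjustment. SULT1E1, the estrogen sulfotransferase, is named here after its values were seen. It was at -4.60, -2.21, -2.68 and -1.65 in the controls, at -1.83, -0.76, -0.55 and -0.42 on day 7 after 6.7 Gy and at -0.01, -1.16, -0.45 and -0.71 after 7.4 Gy. The differences of 1.89 (SE 0.77, adjusted p = 0.418) and 2.20 (SE 0.77, adjusted p = 0.204) did not pass, and the controls alone ran from -4.60 to -1.65. Genes above all controls on day 7 were CYP2F1 and SULT1B1 at the lower dose (3.39%; 4.47% of all probes) and CYP2F1 and SULT1E1 at the higher dose (3.39%; 3.72% of all probes). Below all controls were NR1I3 at the lower dose (1.69%; 3.51% of all probes), where it was not well above background, and CYP3A5 at the higher dose (1.69%; 4.24% of all probes).

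**Figure D4:**
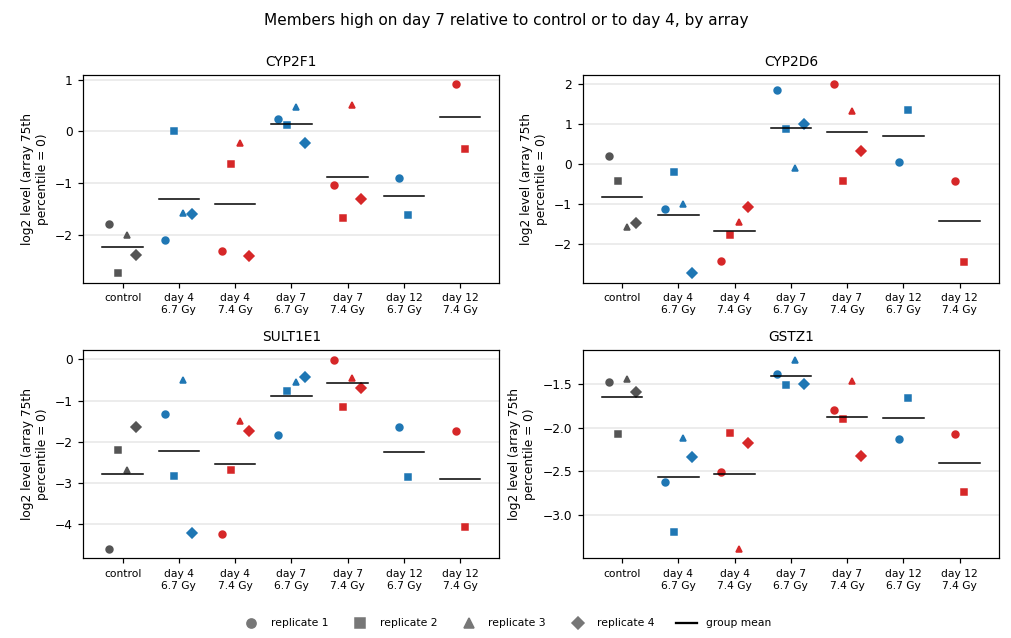
Levels of CYP2F1, CYP2D6, SULT1E1 and GSTZ1 on each array (y axis, log2 intensity with the array's 75th percentile at 0; x axis, the 7 groups; marker shape, replicate; line, group mean). On day 7 CYP2F1 is above all 4 controls in all 8 irradiated animals, whereas CYP2D6 and SULT1E1 overlap the controls in at least 1 dose group and GSTZ1 on day 7 after 6.7 Gy (-1.51 to -1.22) lies within the control range in 2 animals and above the highest control (-1.44) in the other 2.

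UGT3A1 was chosen for its values on day 12 and is set aside here, to be described further below. On day 12, with 2 animals for each dose, none of the other genes was called against the controls. Of all probes 0.108% (6.7 Gy) and 0.0443% (7.4 Gy) were called. The medians of 0.15 and -0.01 were close to those of all probes (0.06 and -0.01). GSTM1 was at 3.13 and 1.52 after 6.7 Gy, against 0.23 to 1.49 in the controls, with a difference of 1.40 (SE 0.52, adjusted p = 0.421). CYP2F1 was at 0.91 and -0.35 after 7.4 Gy, again above all controls, with a difference of 2.51 (SE 0.65, adjusted p = 0.169). GSTA3 was at -2.13 and -2.49 at that dose, below all controls, with a difference of -1.03 (SE 0.37, adjusted p = 0.411). At an unadjusted p under 0.05 with at least 2-fold, GSTM1 met the limits at 6.7 Gy (1.68% of all probes) and CYP2F1, GSTA3 and NR1I3 at 7.4 Gy (1.84% of all probes), and with Benjamini-Hochberg adjustment the methods' t-test called 0 at either dose. After 6.7 Gy 9 of 59 genes (15.3%) had both animals above every control, as had 15.3% of all probes, among them ABCB1, CYP3A4, GSTM1, SULT2A1 and UGT3A1 itself, and none was below every control (7.56% of all probes). After 7.4 Gy 5 genes (8.47%), all glutathione transferases, were below every control (9.37% of all probes), namely GSTA3, GSTO1, GSTO2, GSTP1 and GSTZ1, and CYP2F1, CYP3A4 and NR1I3 were above (8.43% of all probes). The 2 probes of NR1I3 disagreed there: the brighter was at -4.79 and -5.27 and the other at -8.18 and -7.71, not well above background.

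Between day 4 and day 12 UGT3A1 is again set aside, since it was chosen for its values on day 12. None of the other genes was called by its brightest probe, where 2.59% (6.7 Gy) and 1.8% (7.4 Gy) of all probes were called. Dimmer probes of NR1I2 and of CYP3A43, a little-studied CYP3A enzyme, were called after 6.7 Gy, with differences of 1.26 (SE 0.36, adjusted p = 0.0404) and 1.99 (SE 0.52, adjusted p = 0.0302), against 0.97 (adjusted p = 0.116) and 0.32 (adjusted p = 0.734) for the brightest probes. Without replicate 4 of day 4 neither was called (0.89, adjusted p = 0.0725, and 1.54, adjusted p = 0.0604). Smaller differences passed the p threshold after 6.7 Gy for GSTT2 (-0.78, SE 0.19, adjusted p = 0.0255), CYP21A2 (0.75, SE 0.21, adjusted p = 0.0388) and SULT6B1 (0.50, SE 0.14, adjusted p = 0.0383), and none of the 3 did so without replicate 4 of day 4 (adjusted p = 0.0555, 0.0769 and 0.0737). After 7.4 Gy 6 of 59 met the limits at an unadjusted p (4.97% of all probes), among them CES2, GSTA1, CYP4F12 and CYP4F8, all 6 higher on day 12, and the methods' t-test gave 4 without and 0 with adjustment. Without replicate 4 of day 4 after the lower dose, CYP4F12, CYP4F8 and NR1I3 were called in this comparison (2.67% of all probes). The brightest probe of NR1I3 was itself dim, well above background on only 11 arrays. Its other probe went the opposite way after 7.4 Gy, at -8.18 and -7.71 on day 12 against -7.42 to -6.04 on day 4. Nothing is therefore read from the call of NR1I3.

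The 2 doses were not told apart on day 4 or day 7 for any of the 59 genes, and 0 of all 36108 probes were called. At an unadjusted p under 0.05 with at least 2-fold, 0 genes met the limits on day 4 (0.424% of all probes) and 2 on day 7 (0.39% of all probes), and the methods' t-test called 0 on either day after adjustment and 0 and 3 before it. For the genes that were low on day 4 the differences between the doses did not pass the test, with -0.36 (SE 0.46) for GSTA1, 0.34 (SE 0.30) for GSTA3 and -0.51 (SE 0.29) for CES2. Of the 59 genes 34 were lower at 7.4 Gy on day 4, 45 without replicate 4 of the lower dose and 23 without replicate 1 of the higher dose.

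UGT3A1, an N-acetylglucosamine transferase of the UGT superfamily, was picked for its dose difference on day 12, which is therefore given as a description without a test. On day 12 its brighter probe was at -0.48 and -0.02 after 6.7 Gy and at -3.13 and -3.57 after 7.4 Gy. The controls were at -3.76, -3.69, -2.57 and -3.48, and all 22 arrays outside the group of day 12 after 6.7 Gy ran from -4.61 to -2.22. The 2 animals of the lower dose thus stood above all others, and the higher dose was at the level of the controls. The higher dose was lower by 3.10 on the log2 scale, an 8.60-fold difference of the group means.

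The second probe of UGT3A1 gave the same order at a dimmer level, well above background on 9 of 24 arrays. It was at -4.24 and -3.51 on day 12 after 6.7 Gy, where it was well above background in both animals, and at -6.66 and -7.01 after 7.4 Gy, where it was so in 1 of 2. All 22 arrays outside the lower dose of day 12 ran from -8.47 to -6.11. Both arrays of day 12 after 6.7 Gy are on slides 3 and 4 of scan day 1 and both of the higher dose on slides 5 and 6 of scan day 2, and within day 12 dose and slide cannot be told apart. The other 6 arrays of slides 3 and 4 were at -3.83 to -2.22 for the brighter probe, and the other 4 arrays in position 4 at -3.91 to -3.13.

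The relatives and neighbours of UGT3A1 did not share this difference. UGT3A2, the closest relative, was at -4.54 and -5.55 on day 12 after the lower dose and at -5.46 and -4.66 after the higher dose. In the gene order of the RefSeq annotation of T2T-MMU8v2.0, where 58 of the 62 symbols were found, UGT3A1 lies between CAPSL and UGT3A2. From 6.7 to 7.4 Gy on day 12 the group means of CAPSL, UGT3A2, LMBRD2 and IL7R differed by 0.25, -0.02, -0.07 and 0.22. The mean of 5 hepatocyte markers was -0.27 and -0.59 in the 2 animals with high UGT3A1, within the range of all 24 arrays (-1.49 to 0.63). Of the other 58 genes none was called between the doses on day 12. The share of all probes called there (0.00277%) is the UGT3A1 probe alone, and nothing is read from that share, since the choice of UGT3A1 used this comparison.

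**Figure D5:**
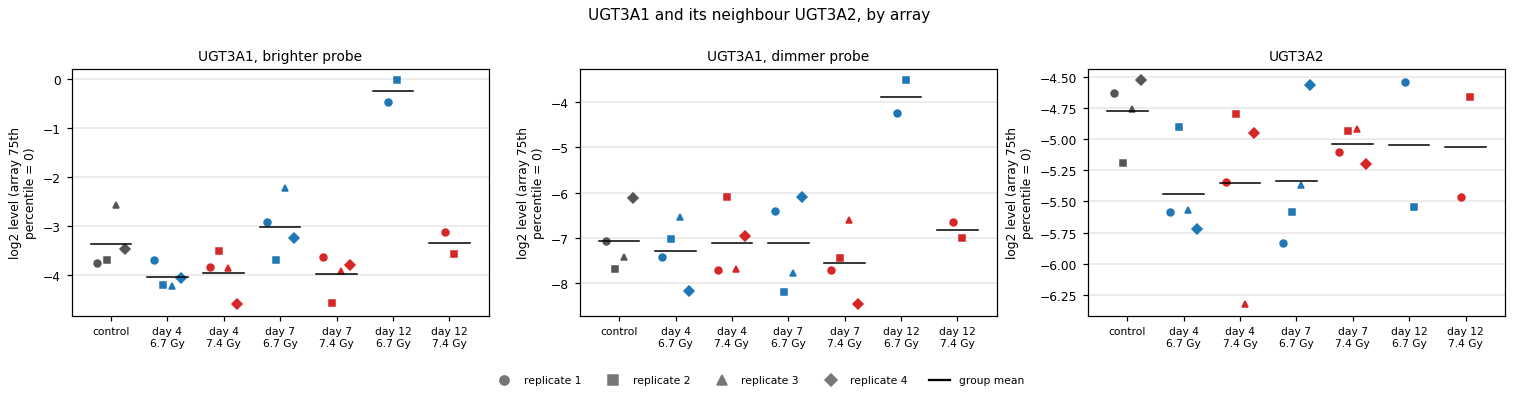
Levels of the 2 UGT3A1 probes and of UGT3A2 on each array (y axis, log2 intensity with the array's 75th percentile at 0; x axis, the 7 groups; marker shape, replicate; line, group mean). Both animals of day 12 after 6.7 Gy lie above all other arrays for the brighter probe (-0.48 and -0.02) and the dimmer probe (-4.24 and -3.51), and within the spread of the other arrays for UGT3A2.

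Other genes of the same pathways were counted from lists of further enzymes, cofactor suppliers, transporters and transcription factors. Of 29 tested genes of oxidation, reduction and hydrolysis, 23 were lower on day 4 after 6.7 Gy and 21 after 7.4 Gy, with medians of -0.29 (-0.16 without replicate 4) and -0.42. At 7.4 Gy 3 of the 29 were called, all lower, where 2.33% of all probes were called and 0.734% were called lower. PON3, a lactonase, fell by 2.10, MAOA, which deaminates monoamines, by 1.18 and CYB5A, the electron donor of many CYP reactions, by 1.18 (adjusted p = 0.0410, 0.0453 and 0.000169). PON3 and MAOA were not called without control replicate 1 (-2.23 and -1.08, adjusted p = 0.0748 and 0.130), nor MAOA without replicate 1 of the higher dose (-0.76, adjusted p = 0.163). Of 21 genes of conjugation and cofactor supply, 16 and 15 were lower, with medians of -0.27 and -0.34 (-0.19 without replicate 1 of the higher dose), and MGST1, a microsomal glutathione transferase, was the only one called, falling at 7.4 Gy by 1.29 (SE 0.24, adjusted p = 0.00427).

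The transporters and regulators gave a mixed picture. None of 10 further drug and conjugate transporters was called against the controls on day 4, with medians of -0.18 and 0.03. Of 19 transcription factors, 12 and 13 were lower on day 4. At 7.4 Gy the bile acid receptor NR1H4 (FXR) fell by 1.52 (SE 0.42, adjusted p = 0.0340), while NR0B2 (SHP), a repressor that NR1H4 is known to induce, rose by 1.70 (SE 0.48, adjusted p = 0.0396). Neither was called without control replicate 1 (-1.34 and 1.81, adjusted p = 0.113 and 0.0722) or without replicate 1 of the higher dose (-1.10 and 1.37, adjusted p = 0.133 and 0.147). No gene of these 4 lists was called against the controls on day 7 or day 12.

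Marker genes of the gut wall were counted on the same days. On day 4, 9 of 12 enterocyte markers were lower after 6.7 Gy and 8 of 12 after 7.4 Gy, with medians of -0.53 and -0.24. Without replicate 4 of the lower dose 5 of 12 were lower there, with a median of 0.12, and without replicate 1 of the higher dose 6 of 12, with a median of -0.03. VIL1, a brush border protein, fell by 1.32 and 1.27 (adjusted p = 0.00106 and 0.000847), and all 8 irradiated animals, at 1.91 to 2.88, were below the lowest control (3.43). KRT20 fell by 1.05 at 6.7 Gy (adjusted p = 0.0150), and at 7.4 Gy FABP1 fell by 1.22 (adjusted p = 0.0156) and LCT rose by 1.94 (adjusted p = 0.0241). All 6 fibroblast markers were higher at both doses, with medians of 0.41 and 0.91, and COL3A1, DCN and LUM rose at 7.4 Gy. Against this, the median of the 5 smooth muscle markers was 0.27 and 0.71, and -0.02 and 0.18 without control replicate 1. Of 4 goblet and Paneth cell markers, 3 were lower and 1 higher at 6.7 Gy (median -0.76), and 2 lower and 2 higher at 7.4 Gy (median -0.39). Of these, AGR2 and CLCA1 of goblet cells fell by 1.12 and 1.22 at 6.7 Gy and by 1.61 and 1.08 at 7.4 Gy. The B-cell receptor component CD79B fell by 1.29 and 1.25 at the lower and higher dose, and CD14 of macrophages rose by 1.14 at 7.4 Gy. Calls lost without control replicate 1 or without the stand-apart animal of the group were those of AGR2, CLCA1 and KRT20 at 6.7 Gy and of CD14, CLCA1, COL3A1, FABP1 and LUM at 7.4 Gy. With array position as a covariate, of the list genes named here only VIL1 at 6.7 Gy and CYB5A at 7.4 Gy were called on day 4. With slide as a block the day 4 calls of AGR2, CD79B and CLCA1 at 6.7 Gy and of CLCA1, COL3A1, LCT, NR1H4 and PON3 at 7.4 Gy were lost.

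Of 6 crypt and proliferation markers, 5 were higher on day 4 after 6.7 Gy and 6 after 7.4 Gy, none called, with medians of 0.58 (0.25 without replicate 4) and 0.18 (4 of 6 higher without replicate 1 or without control replicate 1). Their means on day 7 after 6.7 Gy, -0.56 to 0.22, lay above those of all controls (-1.28 to -0.82), and those after 7.4 Gy (-1.01 to 0.12) overlapped them. All 6 T cell markers were lower at both doses on day 4, none called, with medians of -0.49 and -0.25 (-0.14 with 5 of 6 lower without control replicate 1), and of 6 B and plasma cell markers 5 and 6 were lower, with medians of -1.41 and -1.52. On day 7 after 7.4 Gy CD79B and TNFRSF17 of B and plasma cells fell by 1.34 and 2.97, but CD79B was not called with slide as a block (-1.14, adjusted p = 0.147), and with normexp background correction TNFRSF17 fell by 1.21. Enterocyte markers had medians of 0.01 and -0.21 on day 7 and of 0.22 and -0.11 on day 12, with none called. How much of the day 4 differences of the drug-metabolism genes goes with these markers was not tested.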

How the data were processed

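Total RNA of ileum from 24 rhesus macaques was labelled with Cy3 by the authors and hybridized to single-color Agilent Rhesus Macaque arrays, 1 array for each animal, and the arrays were read with Agilent Feature Extraction. The deposited scanner files give each spot a background-subtracted intensity, without scaling between arrays, and the deposited raw table holds the same intensities within 1 in 100000. The authors' normalized table (GeneSpring) holds log2 values after subtraction of each array's 75th percentile, and the median of every probe across these arrays is 0, so that probes were centred too. Values here were computed from the scanner intensities: log2, averaged over the spots of a probe (outlier spots left out where another remained), minus the 75th percentile of the array over the 43603 probes that are not controls. No spot was saturated, and 72.7% to 88.1% of probes were well above background on an array. The number of arrays limits the precision.

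A probe was tested if all arrays of 1 or more groups had it well above background, which kept 36108 probes. The fit (limma 3.58.1, R 4.3.3) gave 7 group means and a common within-group variance per probe, and p-values were adjusted within each of 13 comparisons (6 with the controls, 3 between doses, 4 between days). Groups were read from the sample titles. The labels' protocol text gives 21 days for samples whose title and day field give day 12, and day 12 was used. Tests ran on simulated data first.

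The genes, lists and tests were chosen with earlier results of these data known. Genes were named when they were called in any comparison, or as the 2 receptors, the 3 transporters, UGT3A1, UGT3A2 or the brightest gene of a family, and of the lists the called genes, at most 4 a list and comparison. Alternatives were normexp background correction (on median signals, since mean signals were not in the files used), quantile normalization, the authors' table, other filters, slide, position or replicate number in the fit, the methods' t-test (2 groups at a time, pooled variance), the mean over a gene's probes and leaving out each array. Gene order came from the RefSeq annotation of T2T-MMU8v2.0, and no sequence or coordinate was used. Some genes are not reported here by name.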

Additional observations from a re-analysis of the deposited data

Results flagged for a closer look

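In 120 sets of 4 animals (the 24 named genes in the 5 groups of 4), 6 held an animal whose gap to the nearest other exceeded Dixon's critical share of the whole range, and chance gives about 1 in 20. In replicate 4 of day 4 after 6.7 Gy, ABCB1 was at 0.057 (others 2.95 to 3.38), ABCG2 at 1.38 (others 3.25 to 3.59) and CYP4F12 at 1.64 (others 3.50 to 3.84). This is the animal with the low enterocyte and high crypt marker means. In replicate 1 of the same group GSTM1 was at 1.92 (others 1.15 to 1.20). On day 7 NR1I2 was at 2.17 in replicate 4 after 6.7 Gy (others 2.45 to 2.49), and ABCB1 was at 3.09 in replicate 3 after 7.4 Gy (others 2.01 to 2.12).

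UGT3A1 differed between the doses on day 12, by -3.10 on the log2 scale at 7.4 Gy relative to 6.7 Gy. It was chosen for this difference, which is given as a description, and dose and slide cannot be told apart within day 12.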

How the results depend on the processing

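Against the controls, where 6 were called, there were 3 calls with slide as a block, 0 with the methods' t-test after Benjamini-Hochberg adjustment, and 17 without it; the same settings gave 0, 0 and 4 between doses, where 1 was called, and 3, 0 and 16 between days, where 6 were called. The counts of day 12 against the controls and between doses and of day 12 against day 4 after 6.7 Gy include UGT3A1, chosen for its values, and nothing is read from its part in them. On day 4 after 6.7 Gy there were 0 calls with array position as a covariate, 0 with the adjusted and 2 with the unadjusted t-test. On day 4 after 7.4 Gy there was 1 with the slide block, 0 with position, 0 with the adjusted and 6 with the unadjusted t-test and 0 on scan day 1 alone. The change of GSTA3 at this dose turned to 0.056 with position (adjusted p = 0.972), and the cause was not tested. On day 7 against the controls, 6.7 Gy gave 0 without the filter on dim probes, 0 with the slide block, 0 and 4 with the t-test and 0 with the mean of a gene's probes, and 7.4 Gy gave 2 with the unadjusted t-test. On day 12 the adjusted t-test gave 0 at 6.7 Gy and the unadjusted 2 at 7.4 Gy. Between doses the unadjusted t-test gave 3 on day 7, and on day 12 the slide block and the adjusted t-test gave 0. Between day 4 and day 7, 6.7 Gy gave 1 with quantile normalization, 1 without the filter, 1 with the replicate block, 0 and 6 with the t-test and 0 on scan day 1, and 7.4 Gy gave 0 with the slide block, 0 and 5 with the t-test and 0 on each scan day. Between day 4 and day 12, 6.7 Gy gave 2 with quantile normalization, 0 with the adjusted t-test, 2 with the mean of probes and 2 on scan day 1, and 7.4 Gy gave 4 with the unadjusted t-test. The UGT3A1 difference was -2.69 with normexp and -2.50 with the slide block.

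Leaving out 1 array at a time gave totals of 1 to 8 against the controls, 0 to 1 between doses and 3 to 8 between days. The ranges were 0 to 2 and 0 to 6 on day 4 (6.7 and 7.4 Gy), 0 to 1 on day 7 after 6.7 Gy, 1 to 1 on day 12 after 6.7 Gy, 0 to 1 between doses on day 12, 0 to 3 and 0 to 4 from day 4 to day 7, 1 to 2 and 0 to 3 from day 4 to day 12, and -3.33 to -2.88 for UGT3A1. Replicate numbers are shared between groups but belong to different animals, and not every pair of same-numbered arrays deviated together (correlations of -0.26 to 0.36, medians of 0.0033 to 0.057 for the 4 numbers). With the replicate block no named call changed other than that of GSTZ1 from day 4 to day 7 (adjusted p = 0.0631). Array position could be fitted only on day 4 against the controls and between doses, since no array of day 7 or day 12 shares a position with a control or day 4 array. The scan-day settings and the 3 arrays set apart were chosen after seeing the data.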
